A study of Mus musculus with 9 samples.

Results

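The genes described here encode the protein subunits of the mitochondrial ribosome. They were taken by their mouse symbols, as every protein-coding gene named Mrpl or Mrps followed by a digit. The rule gave 77 of the 32976 genes counted in the tables, 48 of them named Mrpl and 29 named Mrps. By their place in the assembled particle 50 belong to the large subunit and 26 to the small subunit, with Mrps18a and Mrps30 counted in the large subunit despite their names. Mrps36 was put in neither, because its product is now known as a component of the 2-oxoglutarate dehydrogenase complex. Mrpl33, the only other gene of this kind in the annotation, was not analysed here.

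The mitochondrial ribosome translates the few mRNAs that the mitochondrial genome still encodes, all of them for subunits of the respiratory chain and ATP synthase. Its proteins are made from nuclear genes, translated in the cytosol and imported. Some descend from the ribosome of the bacterial ancestor, and others were gained in mitochondria. In T cells, activation is accompanied by growth of the mitochondrial network, and mitochondrial translation is needed for proliferation and for effector function.

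The libraries came from CD8+ T cells sorted from CT26.WT tumors, a colorectal carcinoma line grown under the skin of BALB/c mice. All mice were wildtype and all had received the PD-1 antibody clone RMP1-14 on days 3, 6 and 9, so no untreated group was compared, and neither age nor sex was given. The cells were CD44+, bound a tetramer of the tumor epitope GSW11, and fell into 3 groups of 3 libraries. TetHighProg held high avidity cells from progressing tumors (replicates 1, 2 and 5), TetLowReg low avidity cells from regressing tumors (replicates 6, 7 and 8), and TetLowProg low avidity cells from progressing tumors (replicates 9, 10 and 12). By the study's description each group came from as many separate tumors as it has libraries, and both progressing groups were sorted from the same set of progressing tumors. The labels do not say which of their libraries share a tumor, so all libraries were treated as separate. RNA was amplified with Smart-seq2, which copies full-length mRNA by PCR from very small inputs, and reads were counted per gene on the mouse build GRCm39.

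Each library held between 16405306 and 36429515 gene counts, but the number of genes with at least 10 counts ran from 599 to 8071. Fewer than 2000 such genes were found in 4 sparse libraries, namely replicates 1 and 2 of TetHighProg, replicate 6 of TetLowReg and replicate 10 of TetLowProg. Of 12 CD8 T cell markers between 4 and 12 reached 10 counts. Their summed share of gene counts ran from 0.466% to 0.761% in TetHighProg, from 0.116% to 0.999% in TetLowReg and from 0.325% to 0.732% in TetLowProg. Cd8a was at 0 in TetHighProg replicates 1 and 2 and in TetLowProg replicate 10, while Cd8b1 was above 1000 counts in every library except TetLowReg replicate 6, which had 8. Of 7 B cell markers, 6 or 7 reached 10 counts in TetLowReg replicates 7 and 8 and in TetLowProg replicate 12, with shares of 0.275%, 0.230% and 0.276%. No more than 1 did in any other library, and in the 4 sparse libraries 6 of the 7 were at 0. Of 10 macrophage and dendritic cell markers up to 5 reached 10 counts, and TetLowReg replicate 7 had the largest share at 0.849%, nearly all of it on Lyz2. Of 5 erythroid markers, 3 globin genes reached 10 counts in the same TetLowReg replicates 7 and 8 and TetLowProg replicate 12, with 548 to 2193 counts in all, and in no other library. Of 6 tumor and stroma markers up to 3 did, with the most counts, 12437, on Col1a2 in TetHighProg replicate 1. In bulk RNA fewer cells of a type and less RNA per cell cannot be told apart, and the part of other cells in the values below was not tested.

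Mitochondrial ribosomal protein genes were found in all 9 libraries, yet no library held them all and no member was found in all libraries. A member is called found at 10 counts or more. Libraries are given within each group by rising replicate number wherever 3 values follow each other. In TetHighProg 6, 3 and 17 of the 77 members were found, in TetLowReg 4, 39 and 40, and in TetLowProg 66, 7 and 43. The low counts of members were those of the sparse libraries, and TetLowProg replicate 9 stood above all others.

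**Figure D1:**
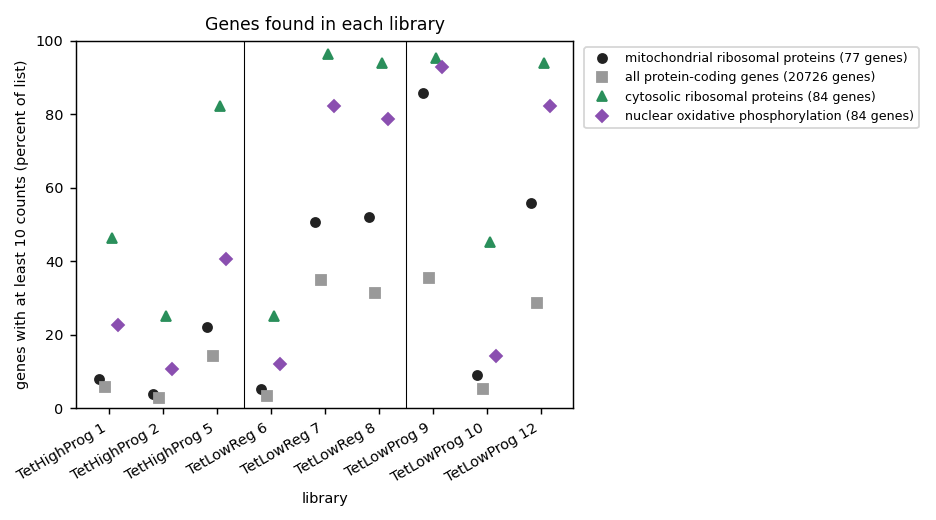
Percent of the genes of each list that had at least 10 counts (vertical axis) in each of the 9 libraries (horizontal axis), for mitochondrial ribosomal proteins (circles), all protein-coding genes (squares), cytosolic ribosomal proteins (triangles) and nuclear oxidative phosphorylation genes (diamonds). Circles lie above the squares in every library, from 3.90% against 2.65% in TetHighProg replicate 2 to 85.7% against 35.4% in TetLowProg replicate 9.

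The sparse libraries held few genes of any kind. All 20726 protein-coding genes were found at 2.65% to 35.4% per library, and the members at 3.90% to 85.7%. The members exceeded the share of all protein-coding genes in each of the 9 libraries, but the order of the richer libraries differed. TetLowReg replicate 7 and TetLowProg replicate 9 held 34.9% and 35.4% of protein-coding genes, and 50.6% and 85.7% of the members. They lay below the 84 cytosolic ribosomal protein genes, found at 25.0% to 96.4%, and below the 84 nuclear genes of oxidative phosphorylation, found at 10.7% to 92.9%, again in every library.

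Per group, 8.67 ± 7.37 members were found in TetHighProg (SD, n = 3), 27.7 ± 20.5 in TetLowReg and 38.7 ± 29.7 in TetLowProg. These means were 11.3%, 35.9% and 50.2% of the members, beside 7.50%, 23.3% and 23.1% of all protein-coding genes. The difference of means was 19.0 members for TetLowReg against TetHighProg, 30.0 for TetLowProg against TetHighProg and 11 for TetLowProg against TetLowReg. The first and the last were below the SD of a low avidity group, and the difference of 30.0 was about as large as the SD of TetLowProg. Leaving out TetLowProg replicate 9 reduced the difference from TetHighProg to 16.3 and turned that from TetLowReg to -2.67, and without TetLowReg replicate 6 the latter was -0.833. Without the 4 sparse libraries the 3 differences were 22.5, 37.5 and 15, with only 1 TetHighProg library left.

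**Figure D2:**
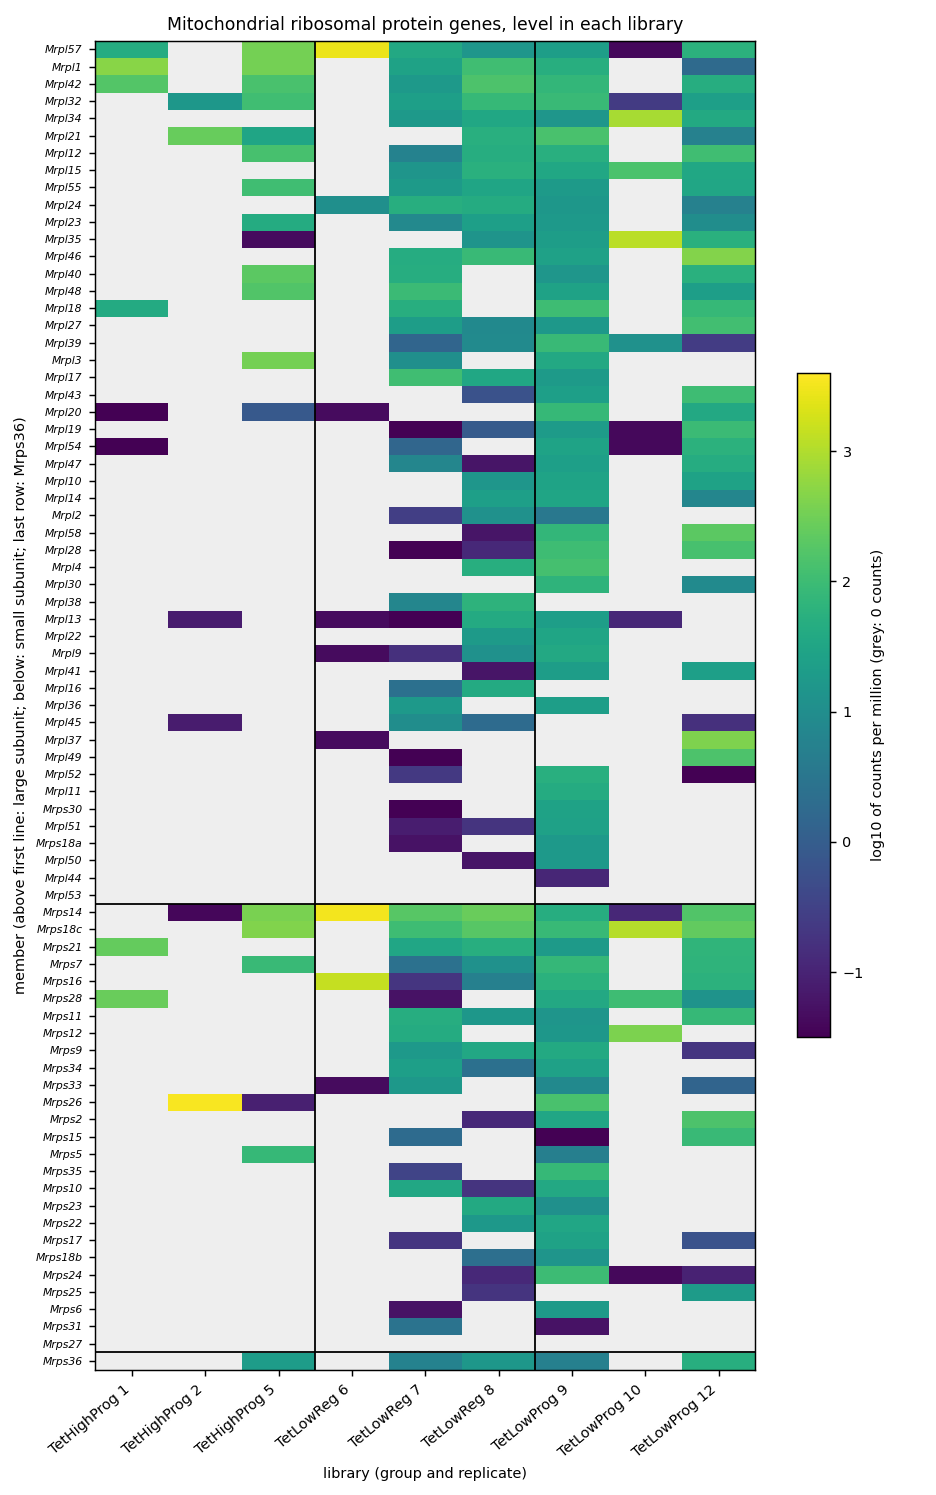
Level of each of the 77 members (rows) in each of the 9 libraries (columns), as log10 of CPM, with grey for 0 counts. Large subunit members are above the first line, small subunit members below it and Mrps36 is in the last row, and within a subunit members are ordered by the number of libraries they were found in. The columns of the 4 sparse libraries are almost empty, with single bright cells such as Mrps26, Mrps14, Mrpl57 and Mrpl35.

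Most values were either 0 or high. Levels are given in CPM, which are counts scaled so that every library has the same total of gene counts. Of the 693 values of 77 members in 9 libraries, 418 (60.3%) were 0 and 50 (7.22%) were between 1 and 9 counts. Of the 225 values (32.5%) at 10 counts or more, only 17 were under 100 and 114 were at 1000 or more. Over all protein-coding genes 75.6% of values were 0 and 17.9% reached 10 counts. In the sparse libraries the members that were found were found at high counts, with a lowest value of 1403 in TetHighProg replicate 1, 402 in TetHighProg replicate 2, 237 in TetLowReg replicate 6 and 298 in TetLowProg replicate 10.

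Members differed in how many libraries held them. Mrpl57 was found in 7, the 5 members Mrpl1, Mrpl32, Mrpl42, Mrps14 and Mrps18c in 6, 10 members in 5, another 10 in 4, 14 in 3, 22 in 2 and 12 in only 1. Among all protein-coding genes 44.4% were found in none, against 3.90% of the members, but 0.796% were found in all 9, against no member. The 3 members never found, which lie outside the rule for named genes and are given because they were so few, were Mrpl44 with 4 counts in all, and Mrpl53 and Mrps27 with 0. A count of 0 allowed at most 0.0824 to 0.183 CPM, depending on the library (3 counts of its total). Such limits cover counting error of the amplified reads only, not RNA lost before amplification. In TetHighProg 52 of the 77 members were at 0 in all 3 libraries, against 7 in TetLowReg and 4 in TetLowProg. Of all 20726 protein-coding genes, 15581, 7855 and 11035 were at 0 in all 3 libraries of these groups.

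The 4 sparse libraries held few members and seldom the same ones. Together they held 18 members, 16 of them in a single sparse library and 2 in a pair of them, and each of the 18 was also found in at least 1 of the other 5 libraries. Those 5 held 74 members in any library and 11 in all. TetHighProg replicates 1 and 2 shared none of their 6 and 3 members, while they shared 309 of their 1191 and 549 protein-coding genes, and TetLowReg replicate 6 and TetLowProg replicate 10 shared none of their 4 and 7, against 370 of 705 and 1064 protein-coding genes. The 2 richer TetLowReg libraries shared 26 members, which was 66.7% of those in replicate 7 and 65.0% of those in replicate 8, beside 60.2% and 66.8% for all protein-coding genes. TetLowProg replicates 9 and 12 shared 39, or 59.1% and 90.7%, beside 65.6% and 81.2%. All 17 members found in TetHighProg replicate 5 were also found in TetLowProg replicate 9, which held 81.7% of the protein-coding genes of that library.

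Levels varied widely even where a member was found in both libraries of a pair. Over the 26 members shared by TetLowReg replicates 7 and 8, CPM had a Spearman rho of 0.388, and the ratio of replicate 7 to 8 ran from -5.47 to 3.32 on the log2 scale. Over the 39 shared by TetLowProg replicates 9 and 12 rho was 0.127, with log2 ratios of replicate 9 to 12 from -4.13 to 5.5. These are descriptions across genes of the same libraries, which share their depth and amplification.

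Members with a counterpart in the bacterial ribosome were found more widely than those specific to mitochondria. The 45 with a counterpart were found in a mean of 3.38 libraries, and the 31 specific to mitochondria in 2.19. The order was the same in each library, from 95.6% against 71.0% in TetLowProg replicate 9 and 62.2% against 35.5% in TetLowReg replicate 8 to 4.44% against 3.23% in TetHighProg replicate 2. Large and small subunits differed less, at means of 3.00 and 2.69 libraries. The length of the canonical transcript, from 555 to 7366 bases, had a Spearman rho of 0.0116 with the number of libraries over the 77 members. The 26 members found in 4 or more libraries nevertheless had a median length of 2466.5 bases, against 1723 for the other 51.

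The most widely found member was Mrpl57, a short protein of the large subunit with no bacterial counterpart (chromosome 14, 58063648 to 58066757, plus strand). It had 45.8, 0 and 349 CPM in TetHighProg, then 2868, 37.4 and 14.9 in TetLowReg, and 23.3, 0.0398 and 60.5 in TetLowProg. A single library, TetLowReg replicate 6, was far above the others, and the 3 groups overlapped.

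Mrps14, a small subunit protein with a bacterial counterpart (chromosome 1, 160022785 to 160030541, plus strand), had 0, 0.0395 and 377 CPM in TetHighProg, 3248, 193 and 277 in TetLowReg, and 46.6, 0.119 and 161 in TetLowProg. It was the member with the most counts in each TetLowReg library. TetHighProg and TetLowReg nevertheless overlapped, through TetHighProg replicate 5.

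Mrps18c, a further small subunit protein of bacterial descent (chromosome 5, 100946493 to 100955417, plus strand), had 0, 0 and 438 CPM in TetHighProg, 0, 104 and 185 in TetLowReg, and 85.3, 1079 and 235 in TetLowProg. In the annotation used here 77.7% of its exons overlap the genes Abraxas1 and Helq. Reads of both strands together were 54613, against 54393 unstranded counts. The groups overlapped.

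Mrpl1, which forms part of the stalk where tRNAs leave the ribosome (chromosome 5, 96357146 to 96414586, plus strand), had its highest levels in TetHighProg. It had 497, 0 and 338 CPM there, 0, 27.9 and 106 in TetLowReg, and 48.8, 0 and 1.87 in TetLowProg. Each group had a library at 0, so the groups overlapped.

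Mrpl42, a mitochondria-specific protein of the large subunit, had 175, 0 and 139 CPM in TetHighProg, 0, 17.4 and 150 in TetLowReg, and 73.7, 0 and 46.8 in TetLowProg. Mrpl32, a large subunit protein whose maturation by the m-AAA protease gates ribosome assembly, had 0, 15.9 and 108 in TetHighProg, 0, 23.5 and 82.4 in TetLowReg, and 88.6, 0.239 and 23.9 in TetLowProg. Both overlapped between all groups.

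**Figure D3:**
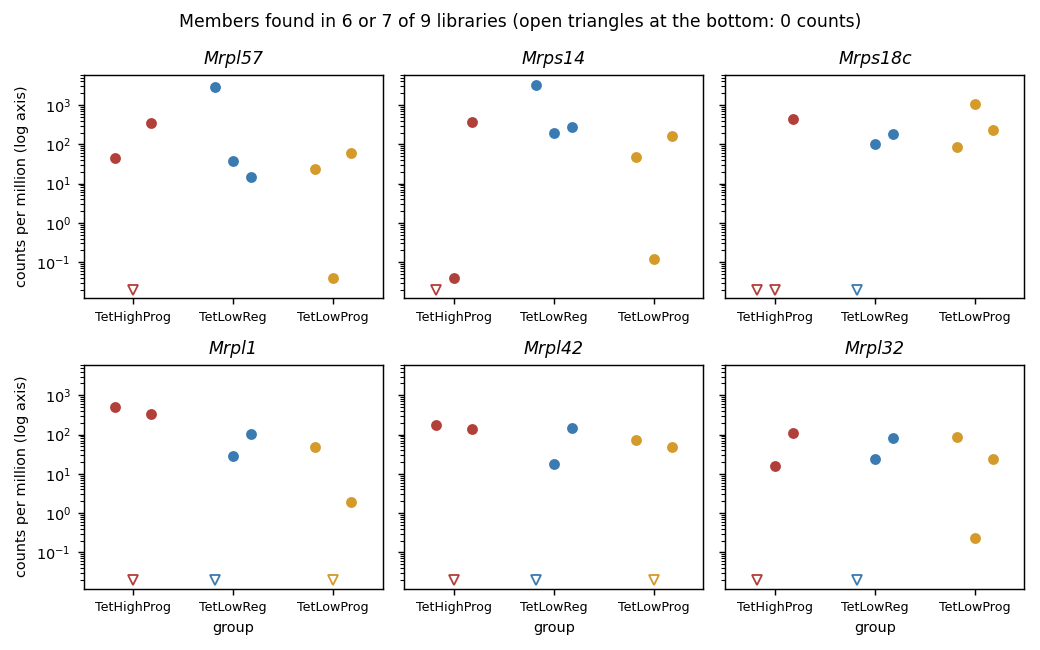
CPM (vertical log axis) of the 6 members found in 6 or 7 of 9 libraries, with 1 point per library by group (horizontal axis) and open triangles for libraries at 0. Every panel has at least 1 library at 0, and the highest point, 3248 for Mrps14 in TetLowReg replicate 6, is a single library.

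Start sites were read from the genome for all members, because several share their start region with another gene. A divergent start of another protein-coding gene, on the opposite strand and at most 1000 bases upstream, was present for 14 members (18.2%), against 5.08% of all 20726 protein-coding genes. Mrpl46 and Mrps11, of the large and the small subunit, are such a pair of members, with canonical starts 30 bases apart on chromosome 7. Both were found in the same 4 libraries, TetLowReg replicates 7 and 8 and TetLowProg replicates 9 and 12, a pattern held by 3 members in all. Mrpl46 had 44.6, 88.6, 26.0 and 455 CPM there and Mrps11 had 48.6, 16.1, 14.7 and 82.2. Other pairs differed more, such as Mrpl49, found in 1 library while its partner Fau was found in 8, and Mrpl14, found in 3 while Tmem63b was found in 0. The bases between the starts of Mrpl46 and Mrps11 are shown first below (chr7:78432838-78432866, plus strand, GRCm39), followed by the 100 bases before the canonical starts of Mrps14 (chr1:160022685-160022784, plus strand), Mrps28 (chr3:8988979-8989078, minus strand) and Mrpl1 (chr5:96357046-96357145, plus strand). Mrps14 and Mrpl1 are shown because each held the most member counts in at least 1 library, and Mrps28 because its libraries did not overlap between the low avidity groups. None of these stretches overlaps an annotated exon, and capitals mark a GC box in Mrps14, an NRF1 core in Mrps28 and a CCAAT box in Mrpl1.
Mrpl46 to Mrps11: ccatgaggcaacgcgggccggcgaggggc
Mrps14: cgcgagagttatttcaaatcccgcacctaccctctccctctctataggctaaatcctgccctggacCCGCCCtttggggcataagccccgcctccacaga
Mrps28: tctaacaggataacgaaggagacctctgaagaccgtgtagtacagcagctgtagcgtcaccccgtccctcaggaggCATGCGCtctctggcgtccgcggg
Mrpl1: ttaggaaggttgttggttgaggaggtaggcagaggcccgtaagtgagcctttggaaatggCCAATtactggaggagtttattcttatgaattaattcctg

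Genes for mitochondrial proteins are often bound at their promoters by NRF1 and by the ETS factor GABP. In all 5 short motifs were searched on both strands of the 300 bases from 250 before to 50 after each canonical start, and none of the 5 contains another. The ETS motif CCGGAAG was present at 23 of 77 members (29.9%), against 10.5% of all protein-coding promoters. The YY1 motif AAGATGG was present at 9 members (11.7%, against 5.73%) and the NRF1 core GCGCATG at 6 (7.79%, against 4.83%). The CCAAT box was present at 33.8% of members against 39.8% of all promoters, and the GC box GGGCGG at 42.9% against 43.7%. The ETS motif occurred both at the most widely found member, Mrpl57, and at Mrpl53 and Mrps27, which had no counts. A match is a stretch of letters and says nothing of binding in these cells.

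Per kilobase of canonical transcript, the large subunit members with the highest mean level over the 9 libraries were Mrpl34 with 167 CPM per kilobase, Mrpl57 with 130, Mrpl42 with 86.3, Mrpl46 with 57.1, Mrpl21 with 49.8, Mrpl35 with 37.9, Mrpl1 with 26.5 and Mrpl28 with 23.8. Those of the small subunit were Mrps14 with 159, Mrps26 with 94.4, Mrps21 with 84.8, Mrps12 with 67.3, Mrps16 with 66.0, Mrps18c with 63.5, Mrps11 with 17.0 and Mrps28 with 16.4. These means hide their spread, because most of them rested on 1 or a few libraries. Mrps26, a mitochondria-specific protein of the small subunit, had 3506 CPM in TetHighProg replicate 2, 134 in TetLowProg replicate 9, 0.0881 in TetHighProg replicate 5 and 0 in the other 6 libraries. The order of neighbours in this ranking is therefore within their spread over libraries.

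Others of these members were likewise found in only some libraries. Mrpl21, of bacterial descent, had 0, 259 and 32.2 CPM in TetHighProg, 0, 0 and 51.9 in TetLowReg and 139, 0 and 5.56 in TetLowProg. Mrps21 had 252, 0 and 0 in TetHighProg, 0, 32.4 and 49.8 in TetLowReg and 19.5, 0 and 70.0 in TetLowProg. Both were found in all 3 groups, and both had libraries at 0 in each. Mrps12, which lines the decoding center of the small subunit, was at 0 in all TetHighProg libraries and had 0, 43.7 and 0 in TetLowReg and 16, 392 and 0 in TetLowProg. Mrpl28 was near 0 outside TetLowProg, with at most 0.122 in the other 6 libraries and 102, 0 and 128 in TetLowProg.

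The members took between 0.118% and 0.754% of gene counts. The share was 0.128%, 0.378% and 0.297% in TetHighProg, then 0.754%, 0.118% and 0.174% in TetLowReg, and 0.275%, 0.379% and 0.346% in TetLowProg. The 95% Clopper-Pearson intervals reached at most 0.00361 percentage points to either side and cover counting error only, because PCR copies were counted separately. Group means were 0.268% ± 0.127 in TetHighProg (SD, n = 3), 0.349% ± 0.352 in TetLowReg and 0.333% ± 0.0532 in TetLowProg, so each difference between groups was below the larger SD of the groups compared. With the top member of each library left out, TetLowProg was 0.154 percentage points above TetHighProg, which was more than the SD of either group in that setting. The shares were then 0.0787%, 0.0275% and 0.253% in TetHighProg and 0.261%, 0.261% and 0.300% in TetLowProg. Every TetLowProg value was thus above every TetHighProg value, at the closest 0.261% against 0.253%. Differences involving TetLowReg stayed below the larger SD in that setting. Without the 4 sparse libraries the difference from TetHighProg was -0.151 percentage points for TetLowReg and 0.0135 for TetLowProg. Libraries with few members found had shares as large as those with many. In TetLowReg replicate 7 the mitochondrially encoded mRNAs took 42.2% of gene counts, and with those genes left out of the total its share was 0.213%.

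Single genes carried these shares in the sparse libraries. In TetHighProg replicate 2, Mrps26 had 88795 counts, which was 92.7% of all counts on members. In TetLowReg replicate 6, Mrps14 and Mrpl57 had 71579 and 63203 counts and together 81.1%, with Mrps16 adding 31116 counts. In TetLowProg replicate 10, Mrpl35 and Mrps18c had 29684 and 27135 counts and together 59.7%. In TetHighProg replicate 1, Mrpl1 and Mrps28 had 16608 and 9122 counts and together 60.0%.

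In the richer libraries the counts were spread over more members. The top member was Mrps18c with 14.7% of member counts in TetHighProg replicate 5, Mrps14 with 16.3% and 15.9% in TetLowReg replicates 7 and 8, Mrpl46 with 13.2% in TetLowProg replicate 12 and Mrpl21 with 5.06% in TetLowProg replicate 9. It took 15 members to reach 50% of the member counts in TetLowProg replicate 9, between 4 and 7 in the other 4 richer libraries, and 1 or 2 in the sparse ones. The large subunit held 7.26% of member counts in TetHighProg replicate 2, 38.2% in TetLowReg replicate 6 and between 55.2% and 71.0% elsewhere.

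**Figure D4:**
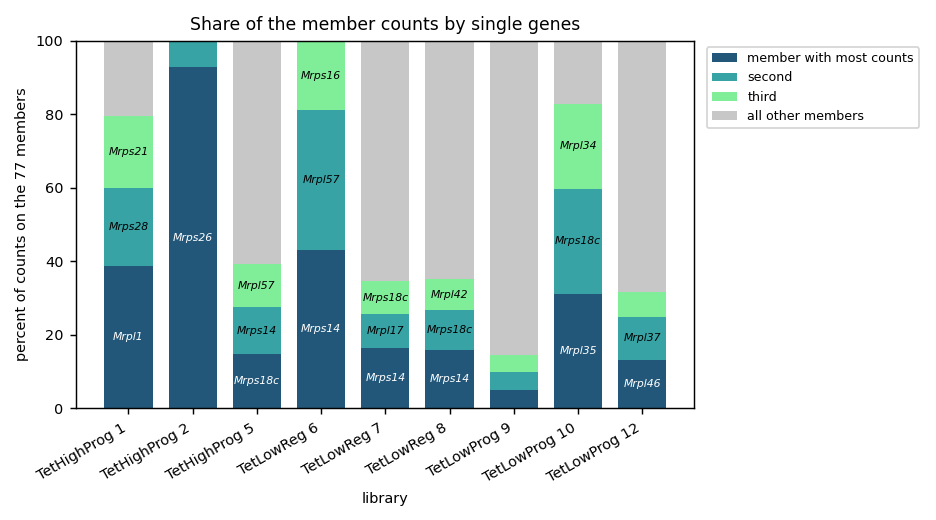
Percent of the counts on the 77 members (vertical axis, from 0) that went to the member with the most counts, the second, the third and all others, in each library (horizontal axis), with names on segments above 7%. Mrps26 fills 92.7% of TetHighProg replicate 2, while no member exceeds 5.06% in TetLowProg replicate 9.

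The first comparison asked how low avidity cells from regressing tumors differed from high avidity cells of progressing tumors. No member was called by edgeR, and no gene was (0% of 5813 genes tested). A call needed a log2 fold change beyond 2 in either direction and a Benjamini-Hochberg adjusted p below 0.05. After the filter on low counts 39 members were tested, 18 of which were at 0 in all TetHighProg libraries and so could only be higher in the other group. Their smallest adjusted p was 0.233 (edgeR quasi-likelihood test, Benjamini-Hochberg adjustment). At an unadjusted p under 0.05, 10 of the 39 were higher (25.6%) and 0 were lower, beside 19% and 0.516% of all genes tested. All 10 were at 0 in every TetHighProg library, so their direction was fixed and the count says nothing particular to the members. The median fitted log2 fold change was 2.89 for the members and 3.52 for all genes tested. The members' median turned to -0.17 when edgeR was fitted on only the groups compared, and was 0.43 without TetLowReg replicate 8.

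The member with the lowest p was Mrps16, a small subunit protein of bacterial descent (chromosome 14, 20439372 to 20443713, minus strand). It had 0 counts in all TetHighProg libraries and 1412, 0.192 and 5.18 CPM in TetLowReg. This made it at least 11312-fold higher against a limit of 3 counts over the group, which covers counting error only here and below, with a log2 fold change of 12.45 ± 5.01 (SE) and an adjusted p of 0.233 by edgeR. Almost all of its 31208 TetLowReg counts came from replicate 6, without which the log2 fold change was 5.56. The exact permutation p was 0.1, the smallest that 3 libraries against 3 allow.

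Mrpl24, a large subunit protein (chromosome 3, 87826798 to 87832192, plus strand), was also at 0 in all TetHighProg libraries, and had 10.8, 50 and 43.7 CPM in TetLowReg. It was at least 1006-fold higher (log2 fold change of 9.42 ± 4.60, edgeR adjusted p = 0.233). With a library left out its log2 fold change was between 8.62 and 9.95. As ratios, its 3 TetLowReg values were closer to each other than those of the other 2 members without overlap. Mrpl9 was the last member whose libraries did not overlap, with 0 in TetHighProg and only 1, 6 and 201 counts in TetLowReg, and it did not pass the filter. These 3 were 3.90% of the members, beside 1.63% of all protein-coding genes. No member was lower without overlap, beside 0.289% of those genes. Of all protein-coding genes 44.4% were found in no library, against 3.90% of the members, so these shares are not like for like.

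Mrpl17, Mrps33 and Mrpl46 had unadjusted p-values next to that of Mrps16 and were all at 0 in TetHighProg. Mrpl17 had 0, 111 and 33.8 CPM in TetLowReg, Mrps33 had 0.0454, 16.6 and 0, and Mrpl46 had 0, 44.6 and 88.6. Because TetLowReg held a 0 for each, they overlapped with TetHighProg. Without TetLowReg replicate 7 the log2 fold change of Mrps33 was 0.35. In the other direction Mrps28, a small subunit protein, had 273, 0 and 0 CPM in TetHighProg and 0, 0.0549 and 0 in TetLowReg. Its log2 fold change of -9.82 ± 5.77 (edgeR adjusted p = 0.255) rested on TetHighProg replicate 1 and was 0.53 without it. Mrpl3 and Mrpl20 had log2 fold changes of -3.87 ± 4.83 and -1.90 ± 2.18 with adjusted p-values of 0.681 and 0.642 (edgeR). Mrpl20 was at -0.02 without TetHighProg replicate 5. Mrpl3 turned to 6.48 without TetHighProg replicate 5, the only TetHighProg library that held it.

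The second comparison set low against high avidity cells, both from progressing tumors. Again no member and no gene was called by edgeR (0% of 5813), and the smallest adjusted p of a member was 0.193. At an unadjusted p under 0.05, 14 of 39 members were higher (35.9%) and 0 lower, beside 24.8% and 0.55% of all genes tested. Of the 14, 13 were at 0 in every TetHighProg library and Mrpl35 had 1 read there, so this count too says nothing particular to the members. The median log2 fold change was 5.82 for the members, or 6.63 with members at 0 in TetHighProg set to their limit, and 4.27 for all genes tested. The members' median turned to -0.39 when edgeR was fitted on only the groups compared, and was 1.71 without TetLowProg replicate 9. The same TetHighProg libraries entered this comparison and the first, so they are not independent. Libraries of both groups here also share tumors, which the fit could not take into account.

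The lowest p belonged to Mrpl34, a small protein of the large subunit with a bacterial counterpart (chromosome 8, 71917555 to 71918396, plus strand). It was at 0 in all TetHighProg libraries and had 15.1, 873 and 40.4 CPM in TetLowProg. It was at least 6940-fold higher, with a log2 fold change of 12.03 ± 5.14 and an adjusted p of 0.193 (edgeR). Without TetLowProg replicate 10 the log2 fold change was 8.42. Its value in TetLowReg was 0, 18.3 and 34.5.

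Mrpl35, likewise of bacterial descent (chromosome 6, 71785165 to 71803953, minus strand), had 0, 0 and 0.0441 CPM in TetHighProg and 21.5, 1181 and 54.8 in TetLowProg. The ratio of pooled CPM was 28187, with a 95% counting interval from 5059 to 1113370 because TetHighProg held a single read. Its log2 fold change was 12.23 ± 5.51 (edgeR adjusted p = 0.193). As with Mrpl34, TetLowProg replicate 10 held most of the counts, and without it the log2 fold change was 8.63.

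Mrpl15 had 0 in all TetHighProg libraries and 34.5, 144 and 34.7 CPM in TetLowProg. It was at least 1741-fold higher (log2 fold change of 9.83 ± 4.83, edgeR adjusted p = 0.193), and none of the 3 TetLowProg libraries was near 0. With a library left out its log2 fold change was between 8.56 and 10.14. Mrpl19 had 20.3, 0.0398 and 95.6 and Mrpl39 had 88.6, 11.9 and 0.254 CPM in TetLowProg, also against 0 in TetHighProg. Mrps24 and Mrpl54, named after their values were seen, completed the 7 members without overlap. Mrpl19, Mrps24 and Mrpl54 were kept apart by single reads, with 1 count each in TetLowProg replicate 10. Mrpl54 also had 1 count in TetHighProg replicate 1, so that 0.0398 against 0.0299 CPM kept its groups apart through the library totals alone. These 7 were 9.09% of the members, beside 1.95% of all protein-coding genes, and no member was lower without overlap, beside 0.159%. All 7 had at most 1 count over TetHighProg. Of all protein-coding genes 44.4% were found in no library, against 3.90% of the members. The shares therefore say nothing particular to the members.

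Mrps16 had 56.1, 0 and 60.2 CPM in TetLowProg and again 0 in TetHighProg. Its log2 fold change was 8.77 ± 4.03 with an adjusted p of 0.193 (edgeR). Of the members with a negative fold change Mrpl1 had the lowest p, with a log2 fold change of -4.60 ± 4.64 and an adjusted p of 0.569 (edgeR), and was at -7.90 without TetLowProg replicate 9. Mrpl3 followed at -3.52 ± 4.75 and Mrpl57 at -2.20 ± 3.40, each smaller than its standard error. Without TetHighProg replicate 5, Mrpl3 turned to 6.64 and Mrpl57 was at -0.03, and without TetLowProg replicate 12 Mrpl57 was at -3.52.

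The third comparison was between low avidity cells of progressing and of regressing tumors. No member was called by edgeR and neither was any gene (0% of 5813). At an unadjusted p under 0.05 there were 0 members in either direction, beside 0.43% of genes higher and 0.499% lower. The median log2 fold change was 0.61 for the members and 0.35 for all genes tested, with 21 members positive and 18 negative. Every member had an adjusted p of 1 after rounding (edgeR).

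Mrpl20, a large subunit protein of bacterial descent, had the lowest p, with 0.0454, 0 and 0 CPM in TetLowReg and 83.9, 0 and 37.6 in TetLowProg (log2 fold change of 8.46 ± 4.77). The libraries of Mrps28 and Mrpl35 did not overlap and were higher in TetLowProg, which was 2.60% of the members beside 0.82% of all protein-coding genes. As above, many protein-coding genes were found in no library. Mrps28 had 0, 0.0549 and 0 in TetLowReg and 37.0, 104 and 13.1 in TetLowProg (8.79 ± 5.47, and 7.345 to 9.413 with a library left out). Mrpl35 had 0, 0 and 13.7 in TetLowReg against 21.5, 1181 and 54.8 in TetLowProg (6.22 ± 4.82), and its log2 fold change was 2.59 without TetLowProg replicate 10 and 12.51 without TetLowReg replicate 8.

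Mrps14 was the only member that was lower in TetLowProg without overlap, which was 1.30% of the members beside 0.381% of all protein-coding genes. Its 3248, 193 and 277 CPM in TetLowReg stood against 46.6, 0.119 and 161 in TetLowProg, with a log2 fold change of -4.21 ± 3.51 and an exact permutation p of 0.1. The log2 fold change was -2.43 without TetLowReg replicate 6 and -5.88 without TetLowProg replicate 12. Mrpl43 had 0, 0 and 0.610 CPM in TetLowReg and 24.3, 0 and 104 in TetLowProg. In the other direction Mrpl57 and Mrpl17 had log2 fold changes of -5.10 ± 3.88 and -4.27 ± 4.88, and their libraries overlapped. Mrpl57 was at -0.77 without TetLowReg replicate 6, while Mrpl17 was at -1.75 without TetLowReg replicate 7 and at -9.94 without TetLowProg replicate 9.

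**Figure D5:**
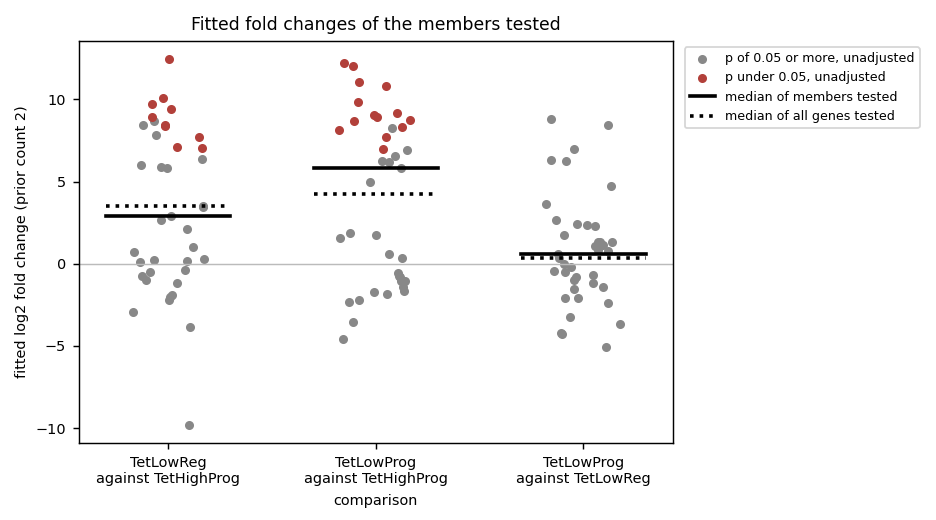
Fitted log2 fold change (vertical axis) of each of the 39 members tested in the 3 comparisons (horizontal axis), with members at an unadjusted p under 0.05 in red. Solid lines are the medians of the members (2.89, 5.82 and 0.61) and dotted lines those of all genes tested (3.52, 4.27 and 0.35).

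The number of calls depended on the tool, for the members and for all genes alike. DESeq2 with its default size factors called 14 of 39 members higher and 1, Mrps28, lower in TetLowReg against TetHighProg, beside 34.1% of all genes it tested that were called higher. It called 22 of 39 members higher in TetLowProg against TetHighProg, beside 42.7%, and 1 of 37, Mrpl20, in TetLowProg against TetLowReg, beside 1.52%. In either direction it called 34.8%, 42.9% and 1.88% of all genes in the 3 comparisons, and 38.5%, 56.4% and 2.7% of the members. DESeq2 with poscounts size factors called 6 of 29 members (20.7%) in TetLowReg against TetHighProg and 9 of 28 (32.1%) in TetLowProg against TetHighProg, beside 27.3% and 24.9% of all genes. With limma-voom the same comparisons gave 17 of 39 (43.6%) and 22 of 39 (56.4%), beside 41.5% and 49.9%. DESeq2 fitted on only the groups compared gave 11 of 20 (55%) and 21 of 38 (55.3%), beside 34.1% and 45.8%. In TetLowProg against TetLowReg these last 3 fits called 0 members, beside 0.54%, 0% and 0.297% of all genes. None of these differences between the members and all genes was tested. On data simulated at a single dispersion close to the common one of these libraries, DESeq2 called more unchanged than changed genes. Limma-voom called none of the changed genes there, but 41.5% and 49.9% of all genes here, so those data may not stand for these libraries. The counts of both tools are given as a description only.

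Further proteins of the mitochondrial ribosome have symbols of another form. Ptcd3, Dap3, Chchd1, Aurkaip1 and Gadd45gip1 encode subunits of this kind, the first 4 of the small subunit and the last of the large subunit, and they varied as the members did. Ptcd3 was found in 6 libraries, with 0, 0 and 11 counts in TetHighProg, 0, 2688 and 2136 in TetLowReg and 2146, 943 and 1485 in TetLowProg. Dap3, which binds GTP in the head of the small subunit, had at most 1 count in TetHighProg, 2, 514 and 356 counts in TetLowReg and 2958, 0 and 518 in TetLowProg. Chchd1 had 24170 counts in TetHighProg replicate 2, its only value above 0 there, and between 140 and 1831 counts in 4 of the 6 low avidity libraries. Gadd45gip1 was found in 3 libraries and Aurkaip1 only in TetLowProg replicate 9, with 4296 counts. Of the 4 tested, none had an unadjusted p under 0.05 in any comparison, and the smallest adjusted p was 0.252 (edgeR).

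Other genes that serve the mitochondrial ribosome also varied by library. These lists are the translation factors (13 genes), the mitochondrial aminoacyl-tRNA synthetases that charge its tRNAs (17), the factors that assemble the ribosome and modify its rRNA (25), and the proteins of mitochondrial transcription and mRNA stability (7). In TetLowProg replicate 9 they were found at 61.5%, 58.8%, 60.0% and 71.4%, below the members at 85.7%. The synthetases and the assembly factors were found less often than the members in each library. The other lists were not, and in TetLowReg replicate 8 the genes of transcription and mRNA stability were found at 100% and the translation factors at 53.8%, against 51.9% of the members. In TetHighProg replicate 2 none of these genes was found, and in TetHighProg replicate 1 only the insertase gene Oxa1l, with 12511 counts, and the leucyl-tRNA synthetase gene Lars2, with 248. At an unadjusted p under 0.05, TetLowReg was higher than TetHighProg for 0 of 5 translation factors tested, 2 of 6 synthetases, 3 of 7 assembly factors and 2 of 5 genes of transcription and mRNA stability. TetLowProg was higher for 1, 2, 2 and 1 of the same genes, and neither comparison had a lower one. Over all genes tested the shares that were higher were 19% and 24.8%, as given above, and with 5 to 7 genes a list these counts say nothing particular to the lists. TetLowProg against TetLowReg had none in either direction.

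Gfm2, a factor that recycles ribosomes, had 3058 counts in TetLowReg replicate 6, between 130 and 809 in the 4 richer low avidity libraries and 18 in TetHighProg replicate 5. Rars2, the arginyl-tRNA synthetase gene, had 17349 counts in TetLowProg replicate 10 and 0 in each of the other 8 libraries. Lrpprc, which stabilizes mitochondrial mRNAs, had 1002 and 1462 counts in the richer TetLowReg libraries, 1158 and 1342 in the richer TetLowProg libraries, and 0 in the other 5 libraries.

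The mRNAs that the mitochondrial ribosome translates were at high counts in libraries where its proteins were hardly found. The mitochondrially encoded mRNAs took 4.81%, 2.05% and 2.47% of gene counts in TetHighProg, 1.05%, 42.2% and 12.8% in TetLowReg and 1.18%, 0.999% and 5.38% in TetLowProg. Of these 13 genes at most 7 were found in a library. The other 6, mt-Co2, mt-Co3, mt-Atp6, mt-Atp8, mt-Nd3 and mt-Nd4l, had 1 count at most in any library, so the shares do not include them. mt-Cytb, for a subunit of complex III, had between 106677 and 14637551 counts and was above all members in every library. Nuclear genes of the respiratory chain and ATP synthase took 0.390% to 1.36% of gene counts and cytosolic ribosomal protein genes 0.485% to 4.93%, the highest in TetLowProg replicate 9, where the members were also found most often. In TetLowReg against TetHighProg the median log2 fold change was 1.07 for cytosolic ribosomal proteins (80 tested) and 1.75 for nuclear oxidative phosphorylation (70 tested), and in TetLowProg against TetHighProg it was 2.43 and 1.53. The members' own medians were 2.89 and 5.82, and those of all genes tested 3.52 and 4.27. Medians of the shorter lists above, over 5 to 7 genes each, were mostly larger than the members'. They were 5.20 and 5.42 for translation factors and 5.24 and 7 for synthetases. Assembly factors had 8.46 and 7.43, and transcription and mRNA stability 6.58 and 4.98. The lists differ in how many genes were at 0 in all TetHighProg libraries, with 52 of 77 members, 8 of 84 cytosolic ribosomal and 32 of 84 oxidative phosphorylation genes. The members' medians were also negative in edgeR fits of only the groups compared, as given above.

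Gene overlap limits what was counted for some members. In the annotation used here, exons of 38 members overlap another gene, and for 28 of them the overlap is over 10% of the exon length. Where the counting annotation, whose release is not given, held the same overlap, reads there were left out as ambiguous when strand was ignored. A low count may then be too low. The overlap reached 93.9% for Mrpl54 (with Matk), 77.9% for Mrps34 (with Eme2 and Mapk8ip3) and 77.7% for Mrps18c. It was 75.3% for Mrps25 (with Nr2c2), 71.9% for Mrps18a (with Rsph9) and 70.5% for Mrpl24 (with Mettl25b). Mrpl54 had 3007 reads over both strands together, the same as its unstranded count, and Mrps18c had 54613 against 54393. The kit did not keep strand, so reads in an overlap cannot be given to either gene. Mrpl53 and Mrps27, both at 0, overlap other genes over 20.3% and 26.1% of their exons and had 0 reads on either strand as well. A pseudogene, Mrps36-ps1, had a row of its own with 13 counts in all, against 5 libraries in which Mrps36 was found.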

How the data were processed

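Sorted CD8+ T cells of 9 libraries were compared by group. The authors deposited raw read counts per gene, without normalization and 1 table per library, and the submitters' processing notes name STAR 2.7.6a, featureCounts and GRCm39. The table layout is that of STAR, and the annotation release is not given in the sources used here. Unstranded counts were used, without the 4 summary lines that name no gene, and gene counts were 40.1% to 59.7% of reads. Reads at several places or in overlapping genes are absent from them. Symbols, types and coordinates came from GENCODE M39, which matched 28645 of 32976 genes. Members and lists were chosen with earlier results of these data known.

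CPM were taken over all gene counts, and per kilobase over the canonical transcript. All genes were tested together with the quasi-likelihood test of edgeR 4.0.16 in R 4.3.3, in 1 model of 3 groups, with TMM factors from 0.600 to 1.82, the default filter and Benjamini-Hochberg adjustment, two-sided. Fitted fold changes carry a prior count of 2, and their standard error is the fold change divided by the root of the test's F. The fit recovered known changes on simulated data of low dispersion, but edgeR and limma-voom called none of them, and DESeq2 mostly unchanged genes, at a dispersion like that of these libraries, which was 8.12. A group at 0 was given a limit of 3 counts over the group. Exact permutation tests were two-sided. The study describes separate tumors within a group, and progressing tumors shared by TetHighProg and TetLowProg, without saying which libraries share one. Alternatives were DESeq2 1.42.0, limma-voom 3.58.1, other filters, scalings, minimum counts and left-out libraries. DESeq2 on the 2 groups compared, leaving out the 4 sparse libraries and summing strand columns were chosen after seeing the data.

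The named members are the 8 Mrpl and 8 Mrps genes with the highest level per kilobase, up to 6 found in the most libraries, the 3 with the lowest p in each direction per comparison, up to 5 without overlap per comparison, and the top member of each library, with 5 subunits of other symbols.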

Additional observations from a re-analysis of the deposited data

Results flagged for a closer look

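The tables also hold the reads of each strand, which were not used in the comparisons. For 6 members the reads of both strands together were more than 1.5 times the unstranded counts over all 9 libraries, which is why they are listed here. The excess was 7298 reads for Mrpl12, 6591 for Mrps34, 3049 for Mrpl24, 2776 for Mrpl47, 580 for Mrps30 and 355 for Mrps25. The exons of Mrpl12 overlap another gene over 1.47% of their length and those of Mrps34 over 77.9%. Because the kit did not keep strand, such reads cannot be given to the member or to its neighbour. Mrps34 had 1873 unstranded counts and 8464 over both strands. With the strand columns summed, the members found were 6, 3 and 18 in TetHighProg, 4, 40 and 41 in TetLowReg and 66, 7 and 43 in TetLowProg.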

How the results depend on the processing

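No paired analysis was possible because the groups share no replicate numbers, although TetHighProg and TetLowProg were sorted from the same set of tumors. The number of members called was 0 by edgeR under every filter, scaling and left-out library. For TetLowReg against TetHighProg, TetLowProg against TetHighProg and TetLowProg against TetLowReg it was 15, 22 and 1 by DESeq2 with default size factors. By DESeq2 with poscounts size factors it was 6 and 9 in the first 2 comparisons, by limma-voom 17 and 22, and by DESeq2 on 2 groups 11 and 21. The shares of all genes called by the same fits stand beside these counts in the results. With a common dispersion of 8.12 between libraries, a count of 0 does not show that the members did not differ. DESeq2 called mostly unchanged genes on data simulated at a single dispersion close to that, which may not stand for these libraries. The cause of these and the following differences was not tested.

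The median log2 fold change of members in TetLowReg against TetHighProg was 1.80 with no filter, 4.31 with 10 counts in every library of a group, 10.67 with DESeq2 defaults, 4.10 with poscounts, 5.15 with limma-voom, -0.17 with edgeR on 2 groups and 4.03 with DESeq2 on 2 groups, against 2.89 as reported, and 0.43 (without TetLowReg replicate 8) to 6.48 (without TetHighProg replicate 5) with a library left out. It was also 0.93 without TetLowReg replicate 7 and 5.48 without TetHighProg replicate 1. In TetLowProg against TetHighProg it was 4.29 with the strict filter, 13.19 with DESeq2 defaults, 8.07 with limma-voom, -0.39 with edgeR on 2 groups and 12.37 with DESeq2 on 2 groups, against 5.82, and 1.71 (without TetLowProg replicate 9) to 7.39 with a library left out. In TetLowProg against TetLowReg it was 2.33 with DESeq2 defaults, against 0.61, and -0.18 to 2.01 with a library left out.

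Named members reversed in 7 cases. Mrps28 in TetLowReg against TetHighProg had a log2 fold change of 0.53 without TetHighProg replicate 1, with -10.55 as the lowest value with a library left out, and 0.80 without the 4 sparse libraries. Mrpl3 turned to 2.83 and 1.14 with limma-voom, and to 6.48 and 6.64 without TetHighProg replicate 5, against TetHighProg in TetLowReg and TetLowProg, with -10.37 and -10.21 as the lowest values with a library left out. Mrpl57 in TetLowProg against TetHighProg was 4.14 with limma-voom. With a library left out, values between 0.35 and 7.73 were found for Mrps33 and between 5.56 and 13.10 for Mrps16 in TetLowReg against TetHighProg, and between 5.15 and 9.22 for Mrpl43 in TetLowProg against TetLowReg.

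The number of members found differed between groups by 12.8 to 30.8, 16.3 to 45.8 and -2.67 to 26.8 with a library left out. The share of gene counts differed by -0.122 to 0.196, -0.00439 to 0.120 and -0.131 to 0.187 percentage points, and changed sign without the 4 sparse libraries for TetLowReg against TetHighProg (-0.151) and TetLowProg against TetLowReg (0.164). Without the top member of each library it was 0.105, 0.154 and 0.0492, the last with its sign changed. These and other minimum counts, thinning and totals moved the values by less than the larger SD of the groups compared. The difference of 0.154 without the top members was nevertheless itself larger than the SD of TetHighProg and of TetLowProg in that setting. Thinning every library to the smallest total changed the members found by at most 2 per library.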
